A study of Mus musculus with 8 samples.

Results

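Levels of 8 mast cell genes, chosen by name from 19935 genes measured, were compared between Adam10 wild-type and knockout mouse skin. Each had a single probe set whose annotation names exactly that gene. Mast cells are granulated immune cells of connective tissue, and in skin nearly all of them lie in the dermis, around vessels, nerves and hair follicles. They mature there under Kit ligand, which binds the receptor Kit, and store histamine together with proteases bound to heparin. Binding of antigen to IgE on their high-affinity receptor releases those stores. Cpa3, Cma1, Mcpt4 and Tpsb2 encode granule proteases, Fcer1a the chain of the IgE receptor that binds IgE, and Hdc the enzyme that makes histamine. Gata2 is a transcription factor of mast cells and Kitl is Kit ligand, which other skin cells make.

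Expression was measured with Affymetrix Mouse Gene 1.0 arrays in mouse skin of 2 Adam10 genotypes, 4 wild-type and 4 knockout samples with 1 array each. The Adam10 protein sits in the cell membrane and sheds the outer parts of receptors, Notch among them. The knockouts are titled cKO, and the deleted exons, the Cre driver, the strain, the age and the sex are not stated in the labels. The titles carry P numbers, 57 to 60 for wild type and 67, 68, 69 and 55 for knockout, and whether these are animals or ages is not stated. The samples are called both skin tissue and primary skin cells. Nothing says that each came from its own animal, so p-values measure the spread between these samples, which may be partly technical. Eif2s3y, a gene of the Y chromosome, was low (1.99 to 2.38) on 1 wild-type and 2 knockout arrays and high (6.68 to 6.84) on the other 5, so both groups hold samples with and without its RNA. Keratinocyte genes were bright on all 8 arrays. Krt14, a keratin of the basal layer, lay at 11.04 to 12.12 on the log2 scale and Krt10, a keratin of the layers above it, at 12.19 to 12.53. Log2 intensity of Adam10 itself averaged 7.28 ± 0.15 for wild type and 6.92 ± 0.12 for knockout (SD, n = 4, limma adjusted p = 0.0641).

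Promoter sequence of the granule protease genes is shown first because those genes were high on the same arrays and because Gata2, which binds GATA sites, is among the genes followed. The windows are those of RefSeq on GRCm38.p6, from 250 bases before to 50 bases after the annotated start, and 7 of the 8 genes had one (Gata2 has 2). Capitals mark GATAA or its reverse complement TTATC, and TATAAA or its reverse complement TTTATA, searched on both strands. The motifs overlap in no stretch shown, and matches outside the stretches are not printed.
Cpa3: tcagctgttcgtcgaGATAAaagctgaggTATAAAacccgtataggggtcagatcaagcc
Mcpt4: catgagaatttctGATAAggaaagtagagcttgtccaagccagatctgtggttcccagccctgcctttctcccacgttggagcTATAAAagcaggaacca
Cma1: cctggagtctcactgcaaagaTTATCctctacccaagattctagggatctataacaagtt
Fcer1a: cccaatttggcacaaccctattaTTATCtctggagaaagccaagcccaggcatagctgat
Hdc: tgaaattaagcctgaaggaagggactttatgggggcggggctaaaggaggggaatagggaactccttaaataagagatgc

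All 5 stretches are read from the minus strand, 5′ to 3′. The Cpa3 stretch is chr3:20242182-20242241, the Mcpt4 stretch chr14:56062326-56062425 and the Cma1 stretch chr14:55944831-55944890. The Fcer1a stretch is chr1:173227285-173227344 and the Hdc stretch chr2:126618679-126618758. The Cpa3 and Hdc stretches end at the base before the annotated start, and the Hdc one is shown as a gene with no match in its window. GATAA in either orientation was found in the windows of 4 genes, Cpa3, Mcpt4, Cma1 and Fcer1a, and in 25.4% of all 32851 windows. TATAAA was found in the windows of 4, Cpa3, Mcpt4, Fcer1a and Kitl, and in 13.6% of all windows. Such a match describes letters, not binding. Tpsb2 had no window, so of the proteases only Cpa3, Mcpt4 and Cma1 were searched. Fcer1a has GATAA too but was dim on every array. Whether a match goes with the pattern across arrays was not tested.

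The granule proteases were high in wild-type arrays 3 and 4 and low in wild-type arrays 1 and 2 and in all knockouts. Cpa3, the carboxypeptidase of mast cell granules, read 3.89, 3.34, 6.85 and 9.37 in wild-type arrays 1 to 4 and 3.16, 2.98, 2.91 and 3.62 in knockout arrays 1 to 4 (log2 intensity). Array 4 stood 4.67 above the mean of the other 3 wild-type arrays. Wild-type array 2 lay inside the knockout range. Mcpt4, a chymase, read 2.84, 2.92, 5.21 and 8.0 in wild type and 3.10, 2.82, 2.91 and 2.92 in knockouts. Wild-type arrays 1 and 2 were therefore among the knockout values for this gene. Cma1, the other chymase, read 3.44, 3.32, 4.77 and 6.25 in wild type and 3.21, 3.28, 3.08 and 3.23 in knockouts. Its groups did not overlap, though the gap between them was far smaller than the spread of the wild type. Tpsb2, a tryptase, read 4.20, 4.48, 4.73 and 7.13 in wild type and 3.79, 3.94, 3.78 and 3.79 in knockouts. All 4 knockouts were below all 4 wild-type values, and array 3 was only slightly above arrays 1 and 2, unlike for the other 3 proteases. The step from the mean of wild-type arrays 1 and 2 to array 3 was 3.23 for Cpa3, 2.33 for Mcpt4, 1.39 for Cma1 and 0.39 for Tpsb2.

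**Figure D1:**
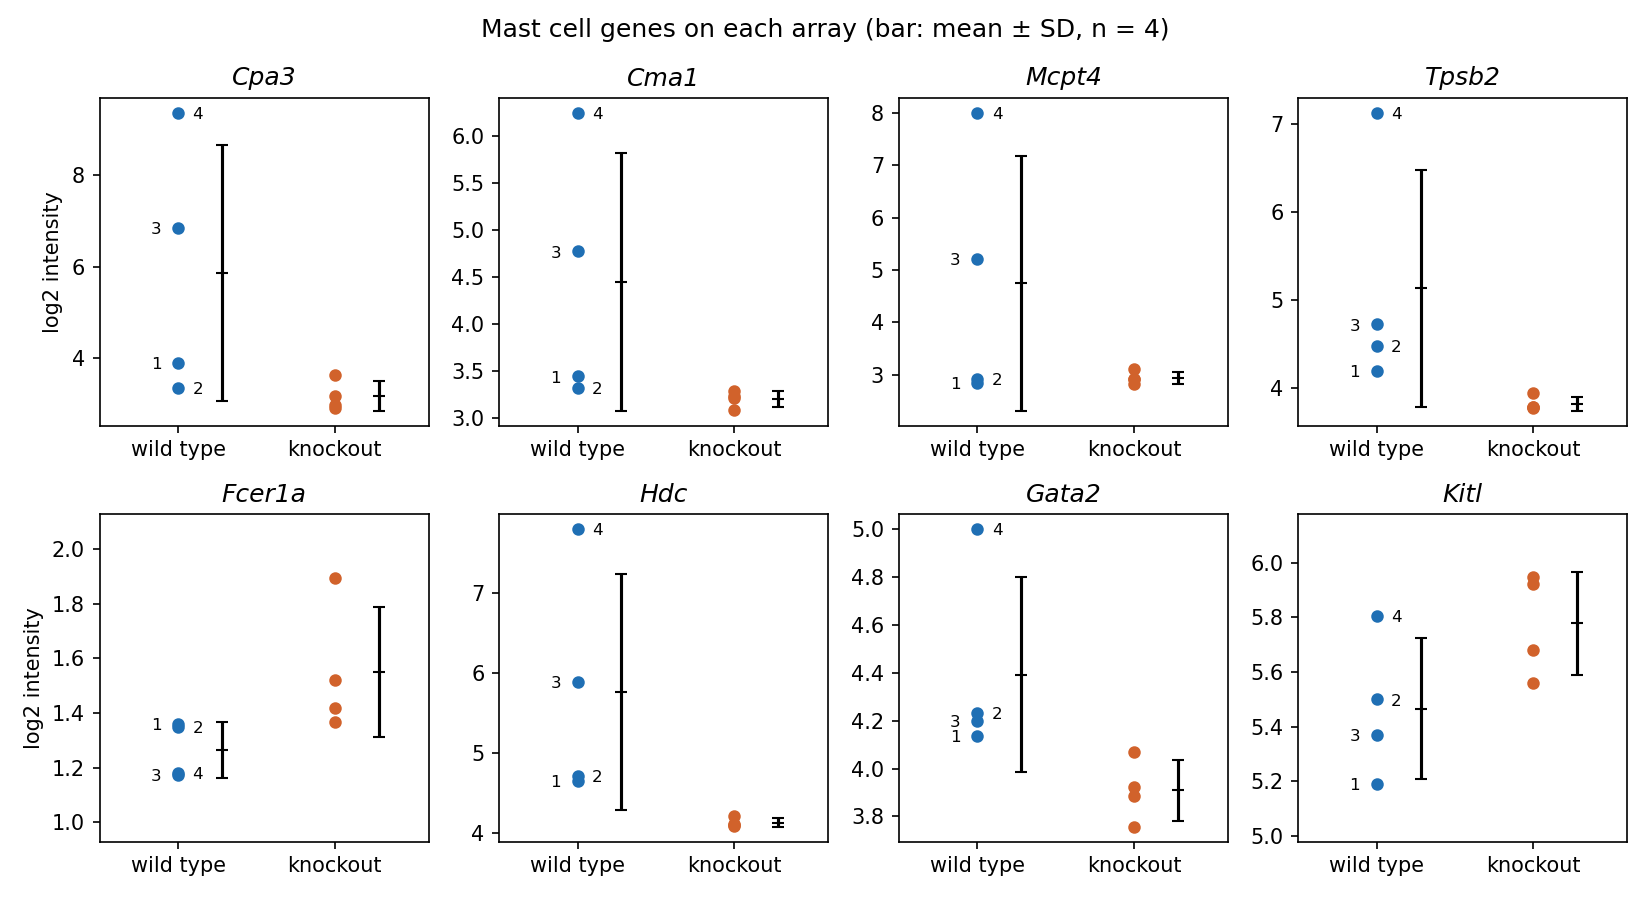
Log2 intensity of the 8 mast cell genes on each array, in a panel per gene with its own axis, with wild type in blue (array numbers beside the points) and knockout in orange. Black bars give the mean and SD (n = 4). Wild-type array 4 is highest for Cpa3, Cma1, Mcpt4, Tpsb2, Hdc and Gata2, whereas Kitl and Fcer1a are highest in knockouts.

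Hdc, the histamine-forming enzyme, split the genotypes more cleanly. It read 4.65, 4.72, 5.88 and 7.80 in wild type and 4.11, 4.21, 4.09 and 4.10 in knockouts. The knockout values spanned 0.12 on the log2 scale, and the highest of them lay below the lowest wild-type value. Gata2 read 4.14, 4.23, 4.20 and 5.0 in wild type and 3.92, 3.89, 4.07 and 3.76 in knockouts. Its groups did not overlap either, and its wild-type arrays 1 to 3 were alike, with array 4 alone above them.

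Fcer1a was dim on every array, including the one where the proteases were brightest, so these data do not show the IgE-binding chain with the granule genes. It read 1.36, 1.35, 1.17 and 1.18 in wild type and 1.37, 1.89, 1.42 and 1.52 in knockouts, at the 3.52 to 11.6 percentile of all genes on the same array. The knockouts were above the wild type by a margin of about the last digit given. Ms4a2, which encodes the beta chain of the receptor, ran from 1.11 to 1.79 and was as dim.

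Kitl had a higher mean in knockout, and among the wild-type arrays it was highest on array 4, as the proteases were. It read 5.19, 5.5, 5.37 and 5.80 in wild type and 5.68, 5.92, 5.95 and 5.56 in knockouts. Knockouts 2 and 3 were above every wild-type array, and the groups overlapped because wild-type array 4 lay above knockouts 1 and 4. The knockout mean was 24.1% higher, a log2 difference of 0.31 with a standard error of 0.15 (limma adjusted p = 0.213).

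Over all 8 arrays the 6 genes of granules, histamine and Gata2 had lower means in the knockout, but none of the 8 genes passed the test over all genes. With limma and Benjamini-Hochberg adjustment over 19935 genes, 0 of 8 were called at 0.05, against 8.75% of all genes (6.41% higher and 2.34% lower in knockout). The differences were -2.69 for Cpa3 (SE 1.08, adjusted p = 0.152), -1.24 for Cma1 (SE 0.53, adjusted p = 0.178) and -1.81 for Mcpt4 (SE 0.94, adjusted p = 0.26). They were -1.31 for Tpsb2 (SE 0.52, adjusted p = 0.15), -1.63 for Hdc (SE 0.57, adjusted p = 0.105) and -0.48 for Gata2 (SE 0.18, adjusted p = 0.128). Fcer1a differed by 0.28 (SE 0.13, adjusted p = 0.193). At an unadjusted limma p under 0.05 there were 6 of 8, against 25.1% of all genes, and 5 of 8 were lower, against 8.80% of all genes. The wild-type spread sets these errors, with an SD of 2.80 for Cpa3 in wild type against 0.32 in knockout and 1.47 for Hdc against 0.06. The groups did not overlap for 4 genes that were lower in knockout (Cma1, Tpsb2, Hdc and Gata2), against 5.86% of all genes, and for 1 that was higher (Fcer1a), against 12.2%. Each of these 5 had a two-sided p of 0.0286 by exact permutation, and the 70 assignments of 8 arrays allow none smaller. Either way there were 5 of 8, against 18.1% of all genes. Cma1 overlapped after quantile normalization, median centring and cyclic loess, and Fcer1a after cyclic loess. The median difference of the 8 genes was -1.28 and that of all genes 0.0027. In bulk samples such as these, fewer mast cells and less RNA per mast cell cannot be told apart.

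The high wild-type arrays were also those with the most dermal RNA. The dermal signal of an array is the mean over 20 fibroblast genes, such as collagens, Dcn and Pdgfra, of log2 intensity minus that gene's mean over the 8 arrays. It was -0.62, -0.43, 0.55 and 2.18 in wild-type arrays 1 to 4 and between -0.46 and -0.38 in the knockouts. Knockouts 1 and 4 lay between wild-type arrays 1 and 2, and knockouts 2 and 3 slightly above array 2. Wild-type array 4 was 2.34 above the mean of the other 3 wild-type arrays. Col1a1, the main collagen of dermis, read 6.63, 7.21, 9.17 and 10.93 in wild type and 6.37 to 6.75 in knockouts. The mean of the 4 proteases, centred in the same way, was -0.57, -0.65, 1.22 and 3.52 in wild type and -0.99 to -0.77 in knockouts. The 4 arrays of the wild type ran in the order 1, 2, 3, 4 by dermal signal. Tpsb2 and Hdc had that order too, and Cpa3 and Cma1 had it except that array 1 was above array 2. Mcpt4 had all of it, but with arrays 1 and 2 only 0.08 apart by the values above.

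Array 4 held more than dermal fibroblast RNA. Skeletal muscle genes (15 measured) lay at a mean of 2.84 above their average there, at 0.79 on array 3, and from -0.77 to -0.40 on the remaining 6. Adipocyte genes (10 measured) lay at 2.72 on array 4 and between -0.60 and -0.13 on all the others, so array 3 was not high for fat. For endothelial genes (10 measured) array 4 was at 1.93, array 3 at 0.21 and the remaining 6 from -0.61 to -0.17. Keratinocyte genes (9 measured) lay at -0.47 on array 4 and between -0.03 and 0.16 elsewhere. The part of these tissue layers in the height of the mast cell genes was not tested.

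**Figure D2:**
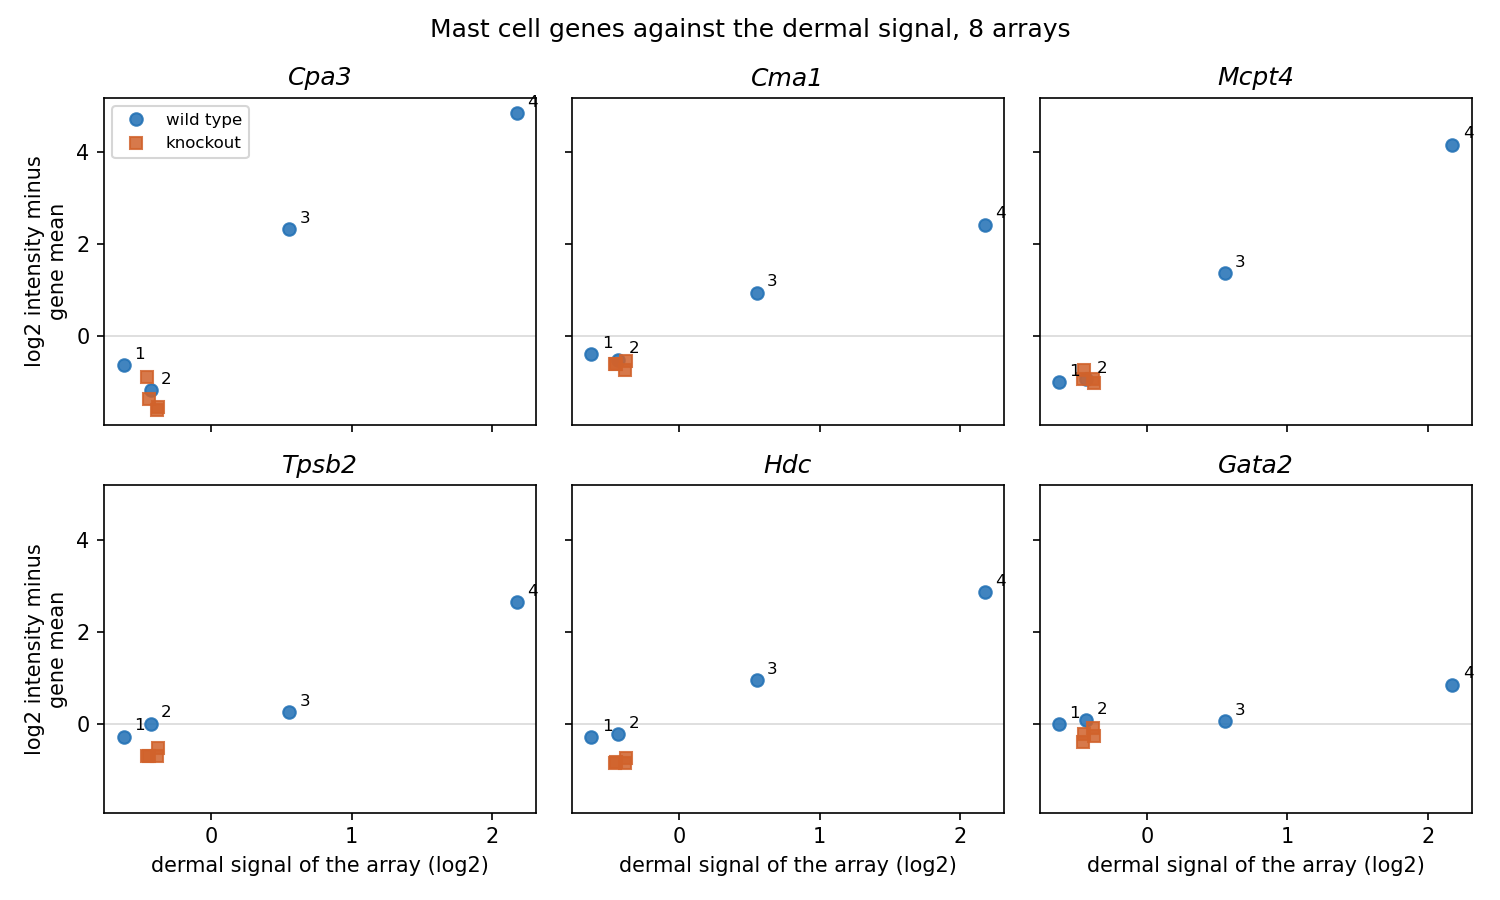
Log2 intensity of 6 mast cell genes minus each gene's mean over 8 arrays (vertical axis) against the dermal signal of the array (horizontal axis, log2), with wild type as numbered blue circles and knockout as orange squares. Knockouts sit at a dermal signal of -0.46 to -0.38, beside wild-type arrays 1 and 2. Hdc and Tpsb2 of the knockouts lie below those arrays, while Mcpt4 of the knockouts lies among them.

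The genes differed in how steeply they went with the dermal signal. In a fit with genotype and dermal signal over the 8 arrays, 1 log2 unit of dermal signal came with 2.12 log2 units of Cpa3 (SE 0.18) and 1.89 of Mcpt4 (SE 0.08). Hdc followed at 1.15 (SE 0.06), Cma1 at 1.06 (SE 0.07) and Tpsb2 at 1.01 (SE 0.10). The slopes were not tested against each other. Gata2 was at 0.30 (SE 0.07), Kitl at 0.18 (SE 0.08) and Fcer1a at -0.06 (SE 0.08). These slopes rest on wild-type arrays 3 and 4, since the other 6 arrays span 0.62 to 0.38 below the average. They are given as a description.

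Compared at like dermal signal, Hdc was lower in the knockout, and so was Tpsb2 when the dermal-rich arrays were set aside. With the dermal signal in the model Hdc fell by 0.68 on the log2 scale (SE 0.10, limma adjusted p = 0.00325), or 37.4% lower, and it was the 1 gene of 8 called, against 8.06% of all genes (2.70% lower). Cpa3 was at -0.92 (SE 0.32, adjusted p = 0.105), Tpsb2 at -0.47 (SE 0.18, adjusted p = 0.15) and Cma1 at -0.36 (SE 0.13, adjusted p = 0.12). Mcpt4 came to -0.23 (SE 0.14, adjusted p = 0.384). Without wild-type arrays 3 and 4, Hdc fell by 0.55 (SE 0.11, adjusted p = 0.0249) and Tpsb2 by 0.52 (SE 0.13, adjusted p = 0.0497), 2 of 8 called against 4.64% of all genes (1.68% lower). Leaving out array 4 alone, the same 2 genes were called, Hdc at -0.96 (adjusted p = 0.0364) and Tpsb2 at -0.65 (adjusted p = 0.0117), against 10.0% of all genes (3.25% lower). Mcpt4 differed by 0.06 between knockouts and wild-type arrays 1 and 2 (SE 0.12, adjusted p = 0.844), and Cma1 by -0.17 (adjusted p = 0.457). Cpa3 was at -0.45 there (adjusted p = 0.286). Whether the proteases differ from Hdc in their response to genotype was not tested.

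The Kitl difference was larger once dermal content was taken into account, and it missed the threshold in the 3 fits given next. Whether its size changed was not tested. With the dermal signal in the model Kitl did pass in some alternative settings, such as median centring, which are named in the last section. Its difference was 0.46 with the dermal signal in the model (SE 0.13, limma adjusted p = 0.0611), 0.42 without wild-type array 4 (adjusted p = 0.0596) and 0.43 without arrays 3 and 4 (adjusted p = 0.147). Gata2 was at -0.24, -0.28 and -0.28 in these 3 fits (lowest adjusted p = 0.114). Array weights, which let limma count a deviant array for less, gave wild-type array 4 a weight of 0.32. Wild-type array 3, also high in dermal signal, got the largest weight, 2.47, so the weights do not set dermal-rich arrays aside. The Cpa3 difference was -2.71 with them and -2.69 without. With them 5 of the 8 genes were called, Cpa3, Cma1, Tpsb2 and Hdc lower and Kitl higher, against 18.2% of all genes (6.10% lower and 12.1% higher). With the skeletal muscle signal in the model 0 were called in limma, against 6.60% of all genes, and 2 (Hdc and Kitl) had an unadjusted p under 0.05, against 21.6%. Hdc then stood at -0.44 (SE 0.12, adjusted p = 0.0543).

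**Figure D3:**
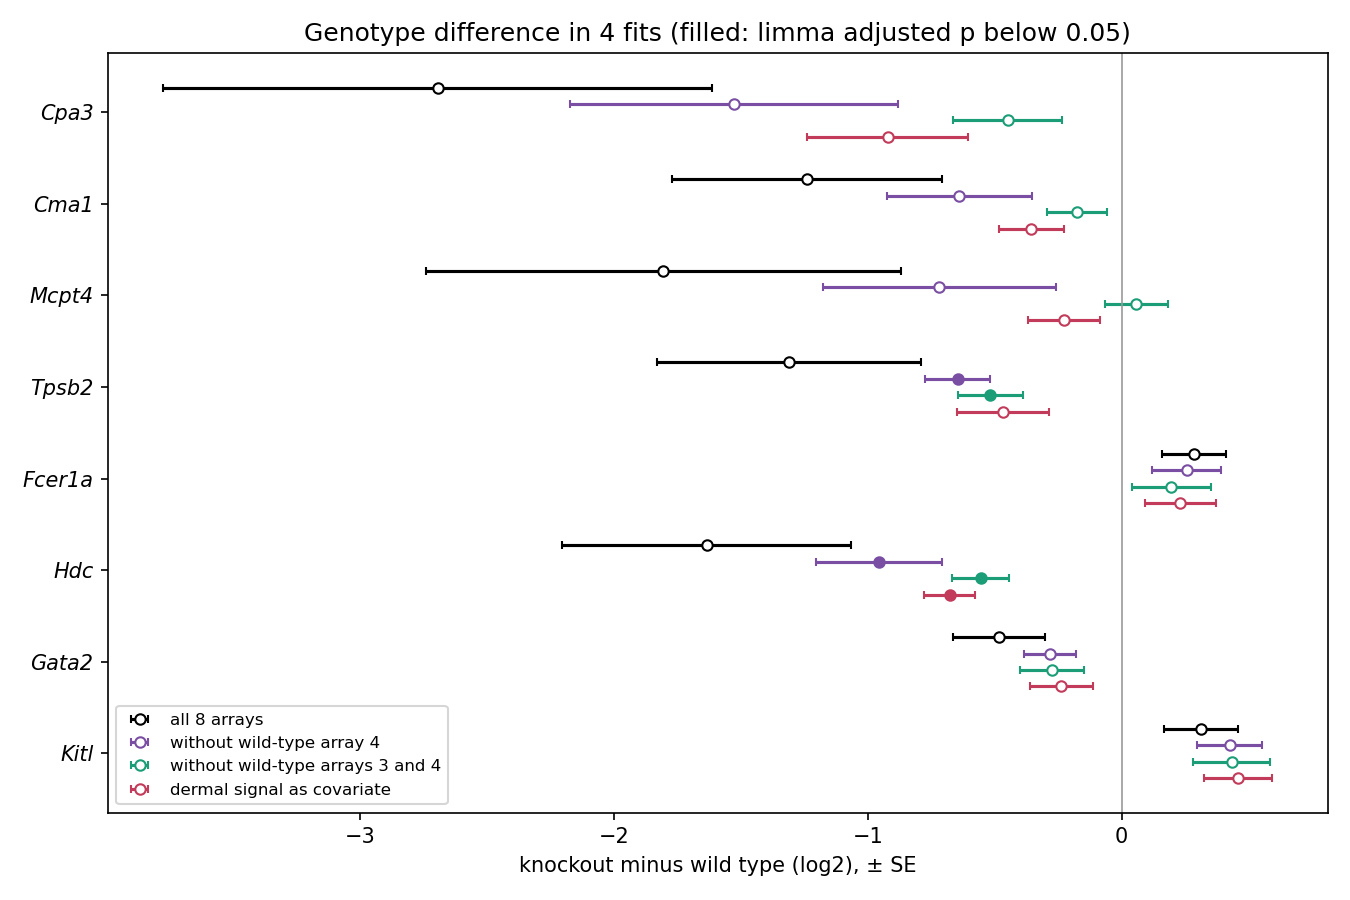
Knockout minus wild type (log2, bars are the standard error) for the 8 mast cell genes in 4 limma fits, with filled points where the adjusted p over all genes was below 0.05. Hdc is filled in 3 of the fits and Tpsb2 in 2, the proteases move toward 0 once wild-type arrays 3 and 4 are left out, and Kitl stays above 0.

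The chymase and tryptase genes lie among relatives, which allows each to be read beside its neighbours on the genome. In the chymase locus of RefSeq, from Cma1 to Gzmb, 13 of 15 genes were measured, and Cma1 and Mcpt4 alone were high on wild-type array 4. On that array Cma1 stood 2.40 and Mcpt4 4.35 above the mean of the other 3 wild-type arrays, and the other 11 genes between -0.46 and 0.53. Mcpt1 and Mcpt2, chymases of mucosal mast cells, read 1.10 to 1.63 and 1.13 to 2.02 over all 8 arrays. Mcpt8, a protease of basophils, read 1.99 to 2.95. Cma2 and Mcpt9 had no probe set annotated to that gene alone and were not measured. In the tryptase locus Tpsb2 and its close relative Tpsab1 were high on array 4, by 2.66 and 2.57, while Prss34, Prss28, Prss29 and Tpsg1 were between -0.13 and 0.62. Tpsab1, which RefSeq lists as a transcribed pseudogene in its reference strain, read 4.01, 3.87, 4.97 and 6.85 in wild type and 3.49, 3.22, 3.76 and 3.23 in knockouts. It differed by -1.50 (SE 0.54, limma adjusted p = 0.115). Tryptases and chymases are similar in sequence, and how far their probe sets share signal was not tested.

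**Figure D4:**
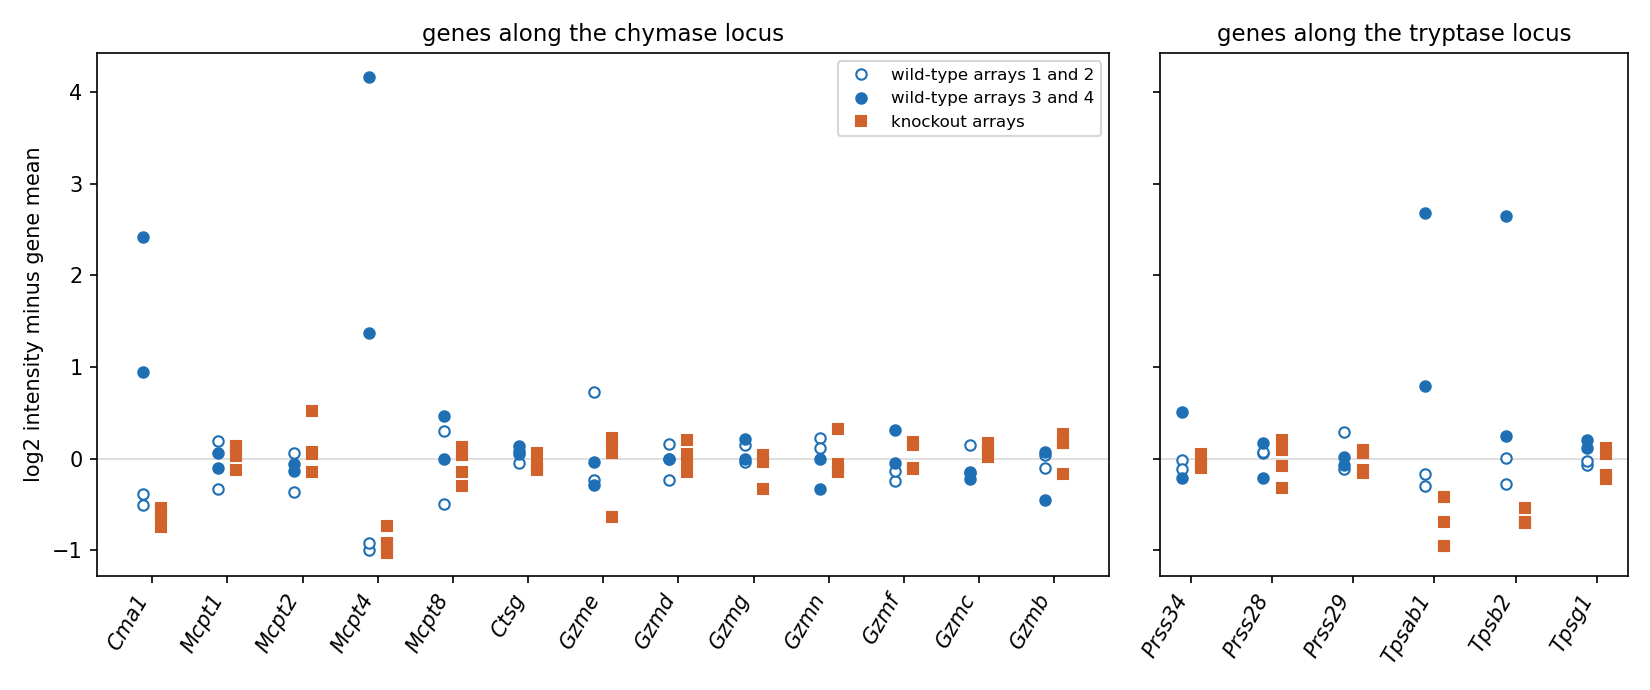
Log2 intensity minus each gene's mean over 8 arrays for the measured genes of the chymase locus (left) and the tryptase locus (right), in genome order, with wild-type arrays 1 and 2 as open circles, 3 and 4 as filled circles and knockouts as squares. Cma1, Mcpt4, Tpsab1 and Tpsb2 reach 2.42 or more on wild-type array 4, and their neighbours do not.

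The genes most like the protease mean over the 8 arrays were genes of muscle and dermis. Likeness was the root mean square difference between centred log2 profiles, so 0 means the same profile. The nearest was Atp1b4, a muscle protein, at 0.15, followed by Atp2a1, the calcium pump of fast muscle, at 0.17 and Des, an intermediate filament of muscle, at 0.19. Col1a2, a collagen chain of dermis, was at 0.20 and Tnnt3, a troponin of fast muscle, at 0.21. The next 5 were Rcn3, Pygm, Casq2, Actn2 and Col1a1, at 0.23 to 0.25. Mcpt4 itself was at 0.30 from the mean of the 4, Cma1 at 0.45, Tpsb2 at 0.56 and Cpa3 at 0.73. Hdc, which was not part of the mean, was at 0.32. The 10 genes were picked as the nearest of all genes outside the 8, so small distances follow from the choice. That they lie nearer to the mean than the proteases or Hdc is not read as a result about mast cell genes. The measure is not scaled, so it counts height as well as shape. On array 4 the proteases differ in height, from 2.42 for Cma1 to 4.85 for Cpa3 above the gene mean. The nearest genes to Kitl were Pttg1ip (0.06), Tmem184b (0.07), Mllt3 (0.09), Mcoln2 (0.09) and Grn (0.09). All of these distances include wild-type array 4, which carries most of the variation in the proteases.

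Other mast cell genes were taken from 5 lists, of which 57 of 64 genes beside the 8 were measured. Of these 57, 5 fell and 4 rose at an adjusted p under 0.05 in limma, 15.8% where all genes gave 8.75% (2.34% lower and 6.41% higher). The lists were chosen with earlier results of these data known and include factors that act on mast cells, such as Il33 and Tslp. The median difference of the 57 was -0.12, against 0.0027 for all genes. Among 11 other genes of granule proteases and proteoglycan Ctsc, the protease that activates granule proteases, fell by 0.97 (log2, SE 0.15, adjusted p = 0.00545). It was at 8.18 to 8.58 in wild type and 7.22 to 7.80 in knockouts, and was not high on wild-type array 4. Srgn, the core protein of the granule proteoglycan, read 5.85, 5.27, 6.24 and 7.80 in wild type and 4.66 to 5.40 in knockouts, and did not pass (adjusted p = 0.102). It was named after its values were seen, as were Mrgprb1 and Slc18a2 of the other lists, which were not called either. Mrgprb1 read 1.64, 1.67, 2.17 and 3.96 in wild type and 1.08 to 1.86 in knockouts. Slc18a2 read 2.72, 2.67, 2.43 and 3.81 in wild type and 2.37 to 2.70 in knockouts. Of the 57 genes 20 were highest on wild-type array 4, against 19.2% of all genes.

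Among 16 other genes of the IgE receptor and its signalling, Fcer1g and Inpp5d fell, where 2.34% of all genes were called lower. Fcer1g, the chain that signals for this and other Fc receptors, changed by -1.04 (SE 0.22, adjusted p = 0.0206). Its call was lost when knockout 1, 2 or 3 was left out (adjusted p 0.0544 to 0.076). Inpp5d, a lipid phosphatase that restrains this signalling, changed by -0.52 (SE 0.10, adjusted p = 0.01). Among 11 other genes of histamine and lipid mediators the prostaglandin D2 synthase Hpgds changed by -0.53 (SE 0.11, adjusted p = 0.0153) and the lipoxygenase Alox5, which starts leukotriene synthesis, by -0.38 (SE 0.10, adjusted p = 0.0407). Hpgds lost its call without wild-type array 3, without knockout array 2 or 3 and without wild-type arrays 3 and 4 (adjusted p 0.0513 to 0.0592). Alox5 lost it without 7 of the 8 arrays in turn. It also lost it after quantile normalization (limma adjusted p = 0.129), median centring (0.0975) and cyclic loess (0.0731), and with the muscle covariate (0.0696). None of Ctsc, Inpp5d, Hpgds and Alox5 had the pattern of the proteases, since their wild-type arrays spanned 0.40 or less. Several of these genes are also active in macrophages and dendritic cells. Macrophage genes (10 measured) lay at 0.27 to 1.04 in wild type and -0.69 to -0.26 in knockouts. Of these 10, 5 were called lower and 0 higher, against 2.34% and 6.41% of all genes. The part of macrophages in these falls was not tested.

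**Figure D5:**
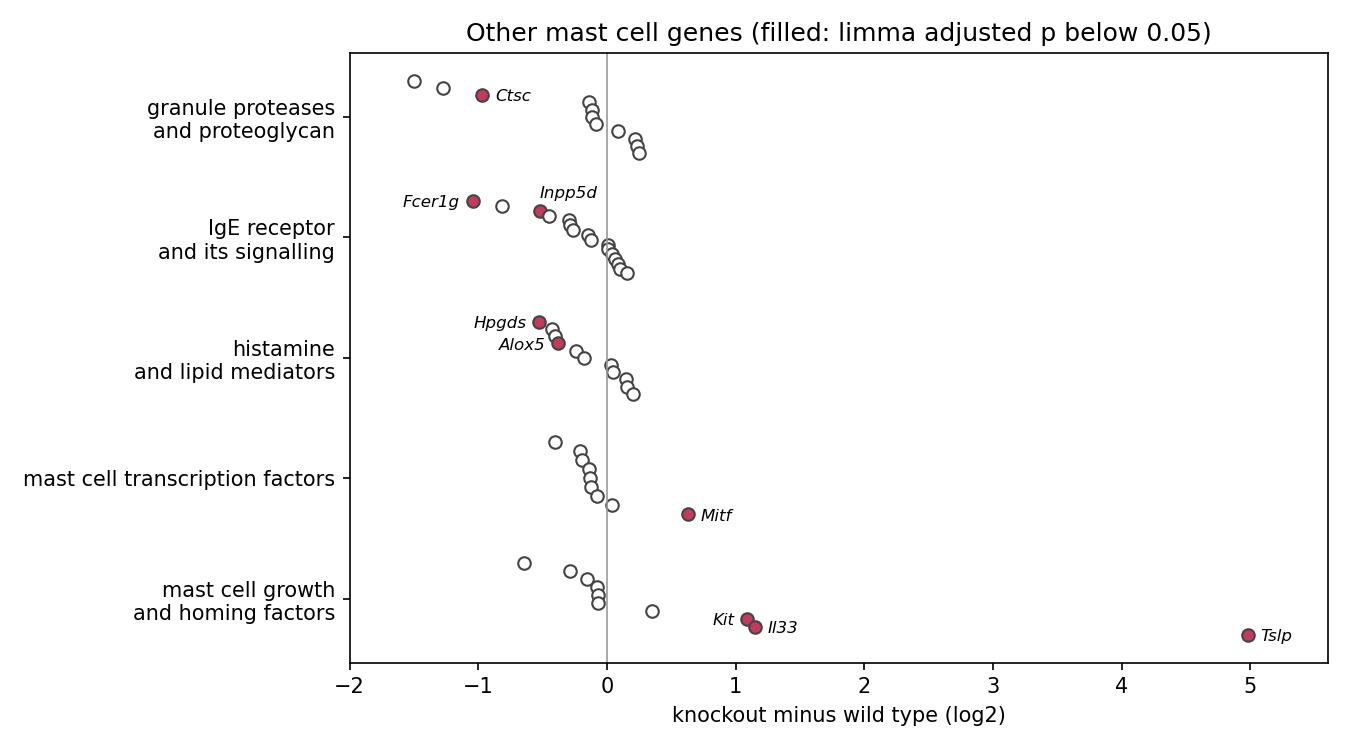
Knockout minus wild type (log2) of the 57 other mast cell genes measured, by list, filled and named where the limma adjusted p over all genes was below 0.05. The 5 genes that fell lie between -1.04 and -0.38, and the 4 that rose are Mitf, Kit, Il33 and Tslp.

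Among the other transcription factors and the growth and homing factors, 4 genes rose. Of 9 other mast cell transcription factors Mitf rose by 0.63 (SE 0.10, limma adjusted p = 0.0056). It lost its call when all probe sets of a gene were averaged (0.38, adjusted p = 0.068). Of 10 other growth and homing factors 3 rose and 0 fell, against 6.41% of all genes higher and 2.34% lower, and the median difference of the 10 was -0.07. Kit, the receptor of Kit ligand, read 6.12, 6.05, 5.89 and 6.0 in wild type and 7.00, 7.27, 6.94 and 7.22 in knockouts, a rise of 1.09 (SE 0.11, adjusted p = 0.001). All 4 knockouts were above all 4 wild-type arrays, and Kit spanned 0.23 over the wild-type arrays, where the 4 proteases ranged by 2.93 to 6.02. Melanocytes also carry Kit and Mitf, and 5 of 10 melanocyte genes, a list that holds Mitf, were higher in knockout and 0 lower, with a mean of -0.53 to -0.17 in wild type and 0.14 to 0.59 in knockouts. Their part in the rise of Kit and Mitf was not tested. Il33, an alarmin to which mast cells respond, read 3.11 to 3.28 in wild type and 3.95 to 4.65 in knockouts, a rise of 1.15 (adjusted p = 0.00242). Tslp, a cytokine of keratinocytes that acts on mast cells among others, read 1.25 to 1.91 in wild type and 6.01 to 7.28 in knockouts, a rise of 4.98 (adjusted p = 3.1e-05). Basophil and eosinophil genes (9 measured) lay at -0.19 to 0.25 in wild type and -0.14 to 0.01 in knockouts.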

How the data were processed

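Labelled RNA of 8 skin samples, 4 per genotype, was hybridised to 1 array each. The deposited values are intensities that the authors summarised by RMA, a multi-array average, as the submitters' processing notes name it. No source used here gives its version or settings, or a genome build. Values ran from 0.817 to 11173 and were read as linear, and log2 was taken with no pseudocount. Arrays give no depth, and the number of arrays limits the precision. Of 35519 probe sets 21780 had exactly 1 gene symbol in the platform annotation, and the probe set with the highest mean log2 was kept, which left 19935 genes. Genotypes were compared with limma 3.58.1 in R 4.3.3 (lmFit, eBayes, two-sided, Benjamini-Hochberg over all genes, threshold 0.05), and single genes also by exact permutation. No filter on dim genes was used. The fit was tested on simulated data, where changes of 0.5 log2 were recovered in 11 of 50 genes and changes of 1 in 40 of 50. Both groups had the same spread there, unlike genes such as Cpa3 and Hdc, so recovery for such genes was not tested.

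The 8 genes, the lists, the tests and the rule for named genes (the 8, Adam10, list members that passed, close paralogs and nearest profiles) were chosen with earlier results of these data known. Srgn, Mrgprb1, Slc18a2, Ms4a2 and, apart from close paralogs, the neighbours in the chymase and tryptase loci lie outside that rule. Other genes outside it serve as tissue markers or, for Eif2s3y, as a marker of the Y chromosome. Alternatives covered normalization, a filter on dim genes, log2 of the value plus 16, probe set averaging, the prior, array weights, thresholds of 0.01 and 0.10, covariates and left-out arrays. A covariate of Y-linked genes was added after the data were seen. Scan dates and probe-level values were not analysed here.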

Additional observations from a re-analysis of the deposited data

Results flagged for a closer look

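In 6 of 48 groups of 4 arrays checked, 1 array lay far from the other 3 by Dixon's ratio (critical value 0.829), and chance flags about 1 in 20 groups. Gata2 was 5.0 on wild-type array 4 and 4.14 to 4.23 on the other wild-type arrays. Fcer1g was 6.20 on the same array and 5.21 to 5.29 on the others, and the macrophage signal was 1.04 there and 0.27 to 0.31 on the others. Tpsb2 was 3.94 on knockout array 2 and 3.78 to 3.79 on the other knockouts. Alox5 was 3.51 on knockout array 2 and 3.76 to 3.78 on the others. Adam10 was 7.06 on wild-type array 3 and 7.33 to 7.39 on the other wild-type arrays.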

How the results depend on the processing

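The count of called genes among the 8, which was 0, stayed 0 under quantile normalization, median centring, cyclic loess, the filter on dim genes, log2 of the value plus 16, averaged probe sets, the trended and robust prior, both other thresholds, the muscle covariate and the Y-linked covariate. It was 5 with array weights, 1 with the dermal signal as covariate, 2 without wild-type arrays 3 and 4, and 0 to 2 with 1 array left out (2 without wild-type array 4). With the dermal signal as covariate the count was 1 in the main setting. It was 2, with Kitl added, after median centring and with the filter on dim genes. Kitl was likewise added, for a count of 2, with the trended and robust prior and at a threshold of 0.10. It was 3 with array weights, with Cpa3 and Kitl added. With 1 array left out it was 1 to 3. It was 2 without wild-type array 2, 3 or 4, with Cpa3 or Tpsb2 added, and 3 without knockout array 4, with Cpa3 and Kitl added. Hdc was called in each of these. Shares of all genes called are not given for these alternatives, so a higher count is not read as a result about the 8. The count was 0 without wild-type arrays 3 and 4, where 6 arrays carry 3 coefficients. Groups did not overlap for 5 genes, for 4 after quantile normalization and after median centring (without Cma1), for 6 without wild-type arrays 3 and 4, for 3 after cyclic loess (Tpsb2, Hdc and Gata2), for 2 with the filter on dim genes, which kept 4 of the 8, and for 5 to 6 with 1 array left out. Shares over all genes are not given for these alternative overlap counts. Groups of fewer arrays separate more readily, so counts with arrays left out cannot be set beside the count for all 8. Mcpt4 changed sign with the muscle covariate (0.17) and without wild-type arrays 3 and 4 (0.058). The cause was not tested. Adam10 was called after quantile normalization (adjusted p = 0.0328) and cyclic loess (adjusted p = 0.0271) in limma, and also with the filter on dim genes (0.0306), log2 of the value plus 16 (0.0371) and the trended and robust prior (0.0487). Over all genes 587 to 1997 were called with 1 array left out, where 1744 were called with all 8, and 925 without wild-type arrays 3 and 4, 3621 with array weights, 2739 after median centring, 478 at a threshold of 0.01 and 2958 at 0.10. Median centring moved the median of all genes to 0.10, and the filter on dim genes to 0.11. The dermal signal of wild-type array 4 stood 2.63 above the other wild-type arrays with collagens alone and 2.17 with the median over markers, where it was 2.34. No paired analysis was possible because the groups share no number in their titles.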
